A study of Homo sapiens with 2 samples.

Results

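The 10 subunits of eukaryotic initiation factor 3 described here are the 8 that form its structural octamer (EIF3A, EIF3C, EIF3E, EIF3F, EIF3H, EIF3K, EIF3L and EIF3M), with EIF3B and EIF3D. They are 10 of the 19994 protein-coding genes in the count table, and were taken by gene symbol, not by any measured value. Their values come from ribosome profiling, in which the stretches of mRNA covered by ribosomes are recovered after nuclease digestion and counted per gene. The cells were HEK293T, an established line from human embryonic kidney that is widely used for transfection. The library named RiboW came from a culture that carried the reporter plasmid pEGFP-mCherry-T2A-EGFP-151TCG; TCG is a codon for serine. The library named RiboWo came from a culture without that plasmid. Both cultures were labelled WT and carried the plasmid for TetRS, a chimeric pyrrolysyl-tRNA synthetase variant, with 12 U6-driven cassettes named CM15CGA. Both were also given TetBu. Both grew in 15 cm dishes, were collected after 30 h of expression, and were held for 1 min in 0.1 mg/mL cycloheximide, which stops elongating ribosomes. Each group had 1 library, and the differences described lie between these 2 libraries, with no replicate check.

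eIF3 is the largest of the initiation factors. It binds the small ribosomal subunit, helps to recruit the initiator tRNA complex and, through eIF4G, the mRNA, and keeps the large subunit from joining early. Its octamer is built from subunits with a PCI domain (EIF3A, EIF3C, EIF3E, EIF3K, EIF3L and EIF3M) and from a pair with an MPN domain (EIF3F and EIF3H), a layout shared with the proteasome lid and the COP9 signalosome. EIF3B, with EIF3G and EIF3I, forms a module on the other side of the small subunit, and EIF3D sits at the edge of the complex, where it can bind the mRNA cap. The subunits other than EIF3J, which is loosely bound, occur in equal numbers in a complete complex.

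Many mRNAs of the translation machinery start with a C followed by a run of pyrimidines, the terminal oligopyrimidine (TOP) tract, through which growth signals control their translation. The sequences around the annotated start are shown because mRNAs of initiation factors are among those described with it. Entries of the RefSeq promoter table (GRCh38.p14) were read for 6 of the 10 subunits. The starts of EIF3A, EIF3E, EIF3H and EIF3L were not examined, so whether these subunits have an entry or the tract is not known here. Each line gives 15 bases before the start and 15 from it. Capitals mark the pyrimidine run where the start is a C followed by at least 4 bases that are each C or T, read on the strand of the gene only.
EIF3K (chr19:38619173-38619202, plus strand): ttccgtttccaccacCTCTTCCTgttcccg
EIF3D (chr22:36529152-36529181, minus strand): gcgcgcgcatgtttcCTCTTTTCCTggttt
EIF3M (chr11:32583816-32583845, plus strand): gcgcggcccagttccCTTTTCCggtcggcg
EIF3F (chr11:7987322-7987351, plus strand): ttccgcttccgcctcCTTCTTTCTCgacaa
EIF3B (chr7:2354812-2354841, plus strand): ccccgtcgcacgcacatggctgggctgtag
EIF3C (chr16:28688543-28688572, plus strand): ctctgtcccacccccgtggcaggcagccct

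EIF3K, EIF3D, EIF3M and EIF3F held the tract, with runs of 8, 10, 7 and 10 pyrimidines. EIF3B and EIF3C did not, starting with A and G. The start used for EIF3B lies 741 bases inside the start of the gene in the files, and that for EIF3F lies 17086 bases inside, so other starts of these genes were not examined. Outside the 10 genes described, the RefSeq starts of EIF3I and EIF3J lacked the tract. It occurred at 1429 of the 35116 promoter entries read (4.07%). Among the 880 coding genes with enough counts and an entry that was read, 127 held it (14.4%), and among small subunit ribosomal proteins 20 of 26 did. A match describes the letters at an annotated start and is not a measured start site.

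The label of the comparison was checked on the plasmids first. The reporter had 271843 counts in the library with the reporter and 399 in the library without it. TetRS had 30286 counts in RiboW and 59723 in RiboWo, although both cultures received its plasmid. RiboW held 2519301 counts in all and RiboWo 3151403, of which coding genes made 346240 (13.7%) and 307768 (9.77%). Among HEK293 markers, NEFL and NEFM had 106 and 56 counts with the reporter and 49 and 50 without it, while PAX2, LHX1 and NEFH had at most 7 in either library. Markers of fibroblasts summed to 17 counts in RiboW and 55 in RiboWo, those of leukocytes to 5 and 20, and those of hepatocytes and serum to 1 and 28. PTPRC and TTR were at 0 in both libraries. Their part in the eIF3 values was not tested.

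The share of coding footprints taken by the 10 subunits together did not differ between the libraries beyond counting error. They had 1084 counts in RiboW and 889 in RiboWo, or 0.313% (exact interval 0.295 to 0.332%) against 0.289% (0.270 to 0.308%) of coding counts. The log2 ratio of these shares was 0.12 (-0.01 to 0.25), and its interval held 0. As a share of all counts they were at 0.0430% with the reporter and 0.0282% without it, beside the larger share of all coding genes in RiboW given above. The libraries hold no matched mRNA measurement, so fewer mRNA molecules and fewer ribosomes on each cannot be told apart, nor can fewer cells from less RNA per cell.

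For single genes, counts were scaled between libraries with edgeR's TMM method and given as a log2 ratio, with the reporter over without it. Its exact Clopper-Pearson interval at 95% covers counting error only. It treats each read as a separate molecule, although PCR copies were not marked, and may understate even that error. A minimum of 100 counts over both libraries left 1060 coding genes, whose median was 0.11. Directions below are given against this median because the choice of scaling does not alter them. A gene was called at 2-fold with an interval that left out 0. Of the 10 subunits, 7 had the 100 counts, and EIF3C, EIF3E and EIF3F did not, at 7, 94 and 93.

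None of the 7 was called higher or lower, where the same rule called 2.83% of coding genes higher and 0.566% lower. Their median log2 ratio was 0.16, or 0.05 above the coding median, with 5 above it and 2 below it. Over all 10 subunits the median was 0.20, with 7 above and 3 below. The interval of 1 of the 7, EIF3K, lay wholly above the coding median, as did those of 17.8% of coding genes. That of 1, EIF3M, lay wholly below it, as did those of 16.1%. These counts are near their backgrounds. The log2 ratios of the 7 spread with an SD of 0.35, where counting error gave 0.22. The 895 coding genes with summed counts in the range of these subunits spread with an SD of 0.47, against a counting error of 0.23.

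Among the PCI subunits, EIF3K stood highest. EIF3K is the smallest of the group and lies at an end of the octamer next to EIF3L. In the fungus Neurospora crassa both can be lost without loss of viability. EIF3K (chromosome 19, 38619082 to 38636955, plus strand) had 153 counts in RiboW and 87 in RiboWo. The log2 ratio was 0.68 (0.29 to 1.08), a scaled count 1.60-fold higher with the reporter, and 0.57 (0.18 to 0.97) relative to the coding median. Its partner EIF3L (chromosome 22, 37848868 to 37889407, plus strand) had 58 counts in RiboW and 48 in RiboWo, a log2 ratio of 0.14 (-0.44 to 0.72). EIF3L therefore lay at the coding median, with an interval wide enough to include the value of EIF3K.

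EIF3A, the largest subunit and the scaffold on which the others assemble, had 192 counts in RiboW and 157 in RiboWo (chromosome 10, 119033670 to 119080823, minus strand). Its log2 ratio was 0.16 (-0.15 to 0.47), at the coding median. EIF3E, also known as INT6 from a mouse mammary tumour virus integration site, had 53 counts in RiboW and 41 in RiboWo. Its log2 ratio was 0.24 (-0.38 to 0.86). EIF3M is a PCI subunit whose mRNA, like that of EIF3K, starts with a pyrimidine tract in the annotation. It had 86 counts in RiboW and 102 in RiboWo (chromosome 11, 32583798 to 32606264, plus strand). The log2 ratio was -0.38 (-0.81 to 0.05), and -0.49 (-0.92 to -0.06) relative to the coding median. Under scaling by total counts the log2 ratio of EIF3M was 0.08, so its sign, unlike its place below the median gene, rests on the scaling. EIF3K and EIF3M thus lay on opposite sides of the median coding gene, and the ratio of EIF3K was 2.08 times (1.39 to 3.14) that of EIF3M.

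EIF3C was nearly absent from the counts. This PCI subunit is the bridge from the octamer to other factors, including eIF1 and eIF5 in yeast. It had 4 counts in RiboW and 3 in RiboWo, a log2 ratio of 0.28 (-2.28 to 3.05). Its near-identical copy EIF3CL, also on chromosome 16, had 0 counts in both libraries, so summing the pair adds nothing. A count of 0 allows up to 3 counts. EIF3C ranked 9457 by summed count among coding genes, while EIF3B ranked 84 and EIF3A 184. Reads that match both copies can be dropped or split by the counting. The sources used here do not give how they were handled, and the part of the copy in the low count was not tested. The value of EIF3C is therefore uncertain, and a difference between the libraries was not detectable at this depth.

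The MPN subunits had fewer counts with the reporter. EIF3F, which has also been described as a deubiquitinase acting on Notch, had 33 counts in RiboW and 60 in RiboWo (chromosome 11, 7970251 to 8001862, plus strand). Its log2 ratio was -0.99 (-1.65 to -0.36), a scaled count 1.99-fold lower with the reporter, and -1.11 (-1.77 to -0.47) relative to the coding median. It was just short of both thresholds, with 93 counts of the 100 needed and a ratio just under 2-fold. Scaling by summed coding counts brought the log2 ratio to -1.03, and scaling by total counts to -0.54. EIF3H, its MPN partner, had 52 counts in RiboW and 54 in RiboWo. The log2 ratio of EIF3H was -0.19 (-0.76 to 0.39), with an interval that held the coding median, and it was 0.27 under total counts.

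Pooled over each structural class, the PCI subunits had 546 counts in RiboW and 438 in RiboWo, and the MPN subunits had 85 and 114. The log2 ratio to all coding counts was 0.15 (-0.04 to 0.33) for the PCI subunits and -0.59 (-1.02 to -0.18) for the MPN subunits. The ratio of the PCI pool was 1.67 times (1.22 to 2.30) that of the MPN pool. Without EIF3F, a choice made after seeing the data, it was 1.29 times (0.85 to 1.97), and without EIF3K it was 1.501 times (1.08 to 2.09). The interval held 1 without EIF3F, but it also held the value with it. These intervals cover counting error only. The 895 coding genes with summed counts in the range of the 7 subunits spread with an SD of 0.47, against a counting error of 0.23. How often other pools of genes differ this much was not tested. Within the MPN pair, the ratio of EIF3F was 0.57 times (0.31 to 1.05) that of EIF3H, which is not a difference beyond counting error. Between the highest and the lowest single subunit, the ratio of EIF3K was 3.19 times (1.89 to 5.45) that of EIF3F. These genes were picked for their extreme values, so this is a description.

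EIF3B and EIF3D, outside the octamer, both had more counts with the reporter. EIF3B carries an RNA recognition motif and a propeller domain that contacts the small subunit. It was the most counted subunit, with 363 counts in RiboW and 272 in RiboWo (chromosome 7, 2354086 to 2380745, plus strand). Its log2 ratio was 0.28 (0.05 to 0.52), and 0.17 (-0.06 to 0.40) relative to the coding median. EIF3D had 90 counts in RiboW and 65 in RiboWo (chromosome 22, 36510855 to 36529184, minus strand), a log2 ratio of 0.34 (-0.14 to 0.82). Together they had 453 counts in RiboW and 337 in RiboWo, and their ratio was 1.18 times (0.98 to 1.42) that of the octamer subunits, with an interval that held 1.

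The remaining eIF3 subunits gave values within the same range. EIF3G, an RNA-binding subunit, had 73 counts in RiboW and 47 in RiboWo, a log2 ratio of 0.50 (-0.05 to 1.06). EIF3I, a propeller protein, had 209 and 211 counts (-0.15, -0.43 to 0.14), and EIF3J had 46 and 44 (-0.07, -0.70 to 0.56). Within the module of EIF3B, EIF3G and EIF3I, EIF3B and EIF3G lay above the coding median and EIF3I below it, with intervals that overlapped. Overlap does not show that the ratios were alike, and the difference between these subunits was not tested.

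The log2 ratios of the subunits are given beside the pyrimidine tract as a description. EIF3K and EIF3D, with a tract, were at 0.68 and 0.34, and EIF3M and EIF3F, also with a tract, were at -0.38 and -0.99. EIF3B and EIF3C, without it, were both at 0.28, EIF3C at only 7 counts. A relation of the tract to the ratio was not tested. Across the coding genes with enough counts, the median log2 ratio was 0.21 for the 127 with the tract and 0.11 for the 753 without it.

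Levels of different subunits were compared as counts per kilobase of the gene length listed in the files and per 1000000 coding counts. EIF3K was highest, at 158 (exact Poisson interval 134 to 185) with the reporter and 101 (81 to 125) without it. EIF3B followed at 117 and 98.3, EIF3A at 78.1 and 71.8, and EIF3D at 68.2 and 55.4. EIF3L was at 39.0 with the reporter and 36.3 without it, EIF3M at 33.4 and 44.6, and EIF3H at 23.4 and 27.3. The lowest levels were those of EIF3F at 6.30 and 12.9, EIF3E at 4.05 and 3.53, and EIF3C at 1.67 and 1.41. The order was the same in both libraries except that EIF3L and EIF3M changed places, a pair whose levels did not differ beyond counting error in either.

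Of the 9 pairs of neighbours in this order, 5 differed beyond counting error with the reporter and 3 without it. All of these comparisons rest on the listed lengths, which are not the coding sequences that ribosomes read. The order per base of coding sequence is not known here. EIF3K exceeded EIF3B with the reporter, by 1.35 times (1.11 to 1.64), but not without it, by 1.03 times (0.80 to 1.31). EIF3B exceeded EIF3A in both libraries, by 1.49 times (1.25 to 1.79) and 1.37 times (1.12 to 1.68). EIF3H exceeded EIF3F in both, by 3.71 times (2.35 to 5.92) with the reporter and 2.12 times (1.44 to 3.11) without it. That direction depends on the longer listed length of EIF3F, 15136 bases against 6431 for EIF3H, since without the reporter EIF3F had 60 counts and EIF3H 54. EIF3A and EIF3D did not differ beyond counting error in either library.

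**Figure D1:**
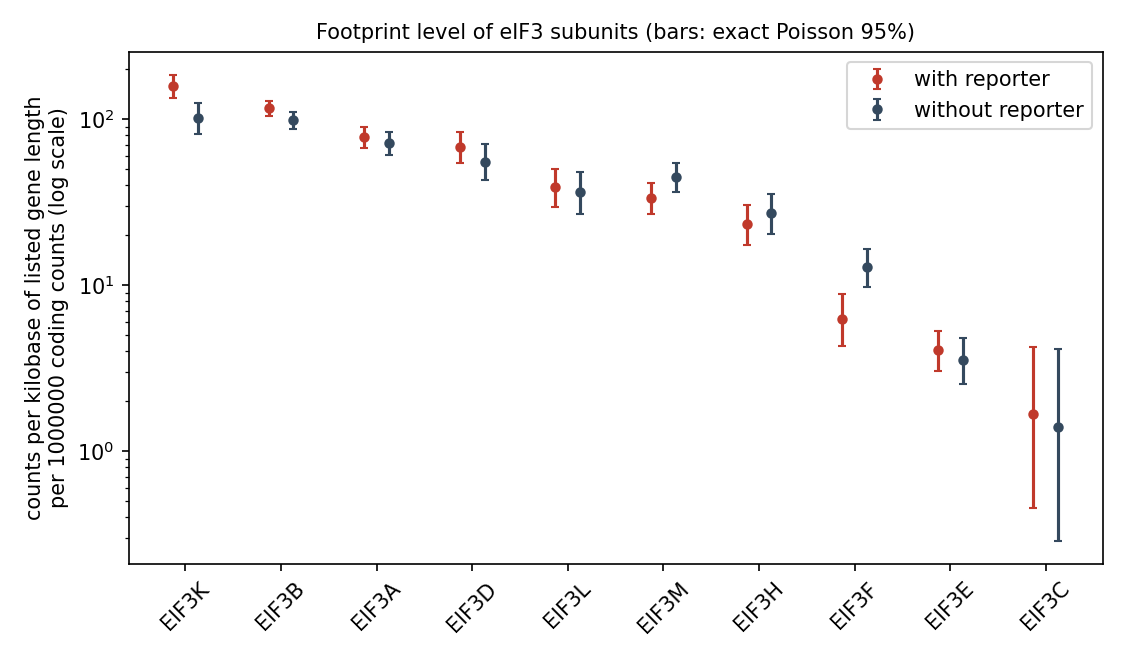
Level of each eIF3 subunit in counts per kilobase of listed gene length and per 1000000 coding counts (log axis), with the reporter (red, left) and without it (dark blue, right); bars are exact Poisson 95% intervals. EIF3K is highest at 158 and 101, and EIF3C lowest at 1.67 and 1.41.

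The highest level was 94.7 times the lowest with the reporter (36.2 to 352) and 71.8 times without it (23.8 to 355), EIF3K over EIF3C in both. Without EIF3C, the ratio of EIF3K to EIF3E, then the lowest, was 39.0 with the reporter and 28.6 without it. The listed length is shorter than the locus but is not the coding sequence that ribosomes read, and how it was made is not stated in the files. For EIF3E it was 37761 bases, and the gene in the files spans 5.91 times its RefSeq locus. For EIF3F it was 15136 bases, with a span of 2.18 times the RefSeq locus. The other 8 subunits had spans within a few percent of RefSeq and lengths of 2798 to 8989 bases. Without EIF3C, EIF3E and EIF3F, a choice made after seeing the data, the ratio was 6.76 (4.91 to 9.45) with the reporter and 3.70 (2.61 to 5.30) without it, EIF3K over EIF3H in both.

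Other initiation factors, small subunit proteins and complexes of the same build held no called gene among those with enough counts, against the background of 2.83% higher and 0.566% lower. Among 15 partners of eIF3 on the small subunit, 7 had enough counts and a median log2 ratio of 0.07, with 3 above the coding median and 4 below. They ranged between EIF5B, the factor of subunit joining, at 0.50 and EIF2S3, the gamma subunit of eIF2, at -0.39. DHX29, a partner below the minimum, had 10 counts in RiboW and 21 in RiboWo, a log2 ratio of -1.20 (-2.45 to -0.05). DHX29 met the call rule as lower, and with no minimum that rule called 5.62% of coding genes lower. The genes of eIF4F and poly(A) binding had 6 with enough counts and a median of -0.05, between EIF4A2 at 0.23 and EIF4G3 at -0.57. The 28 small subunit ribosomal proteins with enough counts had a median of 0.12, with 14 above the coding median and 14 below, between RPS27 at 0.62 and RPS26 at -0.98.

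The relatives of the octamer were more thinly counted. The proteasome lid had 468 counts in RiboW and 442 in RiboWo over 9 genes. Its 3 genes with enough counts lay between PSMD11 at 0.09 and PSMD12 at -0.37. The COP9 signalosome had 264 counts in RiboW and 258 in RiboWo over 9 genes, of which only COPS6 had enough, at -0.72 (-1.32 to -0.13). Below the minimum, COPS8 at 1.79 (0.32 to 3.57) and COPS4 at 1.11 (0.04 to 2.27) met the call rule as higher. With no minimum that rule called 5.15% of coding genes higher. COPS7B, also below the minimum, was at -0.80 (-1.60 to -0.02), short of 2-fold. None of the 5 eIF2B genes had enough counts, and they summed to 108 with the reporter and 123 without it. A median over 3 genes or fewer sets no scale for the 7 eIF3 subunits, and the difference between these complexes was not tested.

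Messages that eIF3 is known to bind were at opposite ends of the depth. JUN, whose translation eIF3 activates, had 1139 counts in RiboW and 913 in RiboWo. Its log2 ratio was 0.19 (0.06 to 0.31), an interval that held the coding median, and 0.07 relative to that median. BTG1, whose translation eIF3 represses, had 5 counts in RiboW and 18 in RiboWo, too few for the 100-count minimum, with a log2 ratio of -1.98 (-3.76 to -0.50). With no minimum the call rule would call BTG1 lower, where it called 5.62% of coding genes lower. A relation of these values to eIF3 was not tested.

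Counting depth set what could be seen for each subunit. The half-width of the interval was 1.17-fold for EIF3B and 1.24-fold for EIF3A, but 1.54-fold for EIF3E, 1.57-fold for EIF3F and 6.35-fold for EIF3C. Of the 10 loci, 8 overlapped another annotated row, and in 4 of them such a row had counts. The largest of these was 21 counts of ANKRD54 without the reporter, with 6 with it, on the strand opposite to EIF3L. SNX8, opposite to EIF3B, had 16 counts in RiboW and 4 in RiboWo. EIF3D and EIF3K overlapped no other row. The 13 pseudogene rows named after eIF3 subunits held 3 counts in RiboW and 1 in RiboWo.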

How the data were processed

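Ribosome footprints were counted in 2 libraries of HEK293T cells, grouped by title. The count table holds raw whole-number counts per gene, deposited by the authors. TopHat2 2.0.12, HTSeq 0.9.1 and the builds GRCh37 and hg19 are listed per the submitters' processing notes, with no role or order, and the sources used here do not give the strand handling. Gene coordinates are printed as in the files, and the start windows are from RefSeq GRCh38.p14. The listed starts of EIF3C, EIF3D, EIF3M and EIF3K lay 0, 18, 33 and 106 bases from their RefSeq starts in GRCh38.p14. The printed coordinates of these genes therefore match GRCh38 and not the builds listed by the submitters. The RPKM table deposited by the authors equals the count over the gene length listed in the file and a library size, and was used as an alternative. Counts were scaled with edgeR 4.0.16 (TMM over all rows) in R 4.3.3, and DESeq2 1.42.0 size factors were an alternative. Python 3.11.15, numpy 2.4.6, scipy 1.17.1 and pandas 2.3.3 gave exact intervals. With 1 library per group no p-value exists. The call rule was tested on simulated counts that varied by counting error only, so that test does not cover other variation between libraries. Levels per codon were planned, but protein lengths were not used here, so listed gene lengths stand in. Named genes include all subunits, the other eIF3 genes, and the genes with the highest and lowest log2 ratio among those with enough counts in each list. Genes of these lists that met the call rule below the minimum are also named. The members, lists and tests were chosen with earlier results of these data known.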

Additional observations from a re-analysis of the deposited data

Results flagged for a closer look

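Rows outside the coding subunits held more than the 3 counts that a count of 0 allows. EIF3J-DT, a noncoding RNA transcribed divergently from EIF3J, had 6 counts in RiboW and 14 in RiboWo. The snoRNA gene SNORA19 inside EIF3A had 7 counts in RiboW and 0 in RiboWo. An unnamed noncoding RNA row overlapping EIF3L had 8 counts in RiboW and 6 in RiboWo. Whether reads of these rows and of the coding genes were kept apart was not tested.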

How the results depend on the processing

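The median of the eIF3 subunits relative to the coding median was 0.05. A scaling shifts all genes alike and cannot move this value. It stayed above 0 under the count minimums and sets of subunits run, and was 0.21 with no count minimum, where all 10 entered. Relative to the main coding median, the median of the 10 subunits was 0.09. The value of 0.21 therefore also reflects a lower coding median with no count minimum, and not only the subunits that entered. Scaling by total counts moved the coding median by 0.46, made 190 coding genes higher and none lower, in place of 30 and 6, and called 1 subunit, EIF3K, higher, with a log2 ratio of 1.14. A 1.5-fold threshold also called 1 subunit, EIF3K, higher, where 14.7% of coding genes were. Over all counts of the library in place of coding counts, the log2 ratio of the shares was 0.61 in place of 0.12. Without EIF3C, EIF3E and EIF3F, chosen after seeing the data, the ratio of the highest to the lowest level was 6.76 with the reporter and 3.70 without it, in place of 94.7 and 71.8. Total counts put 9 of 10 subunits above 0, where the TMM, DESeq2, coding-count and RPKM scalings put 7. Levels per codon were not run. No paired analysis was possible because each group had 1 library.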
